A study of Rattus norvegicus with 6 samples.

Results

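Rab GTPases are small switch proteins that sit on the membranes of the secretory and endocytic pathways. In the GTP-bound form each Rab recruits its own effectors (tethers, motors and fusion factors), and exchange factors turn it on while GTPase-activating proteins turn it off. In the pancreatic β-cell, Rabs of the ER and Golgi carry newly made proinsulin forward, and Rabs of the secretory granule govern granule maturation, docking and exocytosis of insulin. The Rab genes were taken by symbol alone (Rab, a digit and optional letters), so that Rab effectors and regulators with similar names were left out, and they came to 56 of the 12603 genes that the arrays measured. They were sorted by where the protein is known to act, into 10 ER-Golgi Rabs, 8 secretory granule Rabs, 14 exocytic and recycling Rabs, 17 endosomal and lysosomal Rabs and 7 others.

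The cells were INS-1 rat insulinoma cells of a single clone that makes insulin 2 with the C96Y mutation fused to GFP when doxycycline (Dox) is present. The groups were cells given Dox (4 μg/ml in the sample labels, less in the methods) with 5 μM 4μ8c, an inhibitor of the IRE1 endoribonuclease, cells given Dox alone, and untreated cells, all collected at 48 h. Each group had 1 array in each of 2 independent experiments, 6 arrays in all. Every cell carried the inducible transgene, so an effect of doxycycline itself and an effect of mutant proinsulin cannot be told apart. None of the arrays was of cells given 4μ8c alone. An effect that the compound has without Dox therefore cannot be told apart from its effect on the response to Dox. The paper, which did treat cells with the inhibitor alone, reports no change of 1.5-fold or more from it. These are bulk samples, in which fewer cells of a type and less RNA per cell cannot be told apart either.

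Values are log2 signals set to a common centre for every probeset in each experiment, so they give differences between groups and no absolute levels, and Rab genes cannot be ranked by abundance from them. A change below is the log2 difference between 2 groups, averaged over the experiments, and a gene is called when its limma adjusted p, taken over all 12603 genes, is under 0.05. The 3 comparisons share arrays, so they are not independent of each other. In experiment 1 all 3 arrays stood at exactly 0 in 25.5% of probesets (20.9% of the 91 Rab probesets), against 0.00393% in experiment 2. At least 2 of those 3 arrays stood at 0 in 57.2% of probesets (52.7% of Rab probesets), so exact 0 differences reach further genes. For the 8 Rab genes at 0 on all 3 arrays (14.3%, against 18.1% of all genes) only experiment 2 gave a difference. Their change below is that difference averaged with the 0 of experiment 1, and the medians and counts include it. Whether that 0 is a measured equality cannot be told. Over the Rab genes the values spread most widely on the second Dox array (SD 0.110) and the first untreated array (0.107), against 0.0531 to 0.0912 on the other 4. Of 8 standard targets of the unfolded protein response, 8 were called higher with Dox (4.42% of all genes were). Of 9 β-cell markers 8 were measured, and 7 of these lay below 0 with Dox. Of the 8, Iapp (-0.25) and Mafa (-0.56) were called lower (2.01% of all genes were) and the others were not called. Among 3 measured markers of other islet cells Gcg, the glucagon gene of α-cells, was called, at -2.22 with Dox (adjusted p = 0.000721, the lowest change of all genes), 0.86 for Dox+4μ8c against Dox (0.021) and -1.36 for Dox+4μ8c against untreated (0.00609). Mafa was also called higher for Dox+4μ8c against Dox (0.62), as 0.175% of all genes were, and 0 of the 3 measured exocrine and stromal markers were called. Those 3 stood at 0 on all arrays of experiment 1, so only experiment 2 could show a difference in them. The part of these marker changes in the Rab results was not tested, and centring leaves no level from which to check the label. The 3′ minus 5′ signal gap of the β-actin control, relative to untreated, was -0.21 and 0.08 in Dox+4μ8c cells and -0.14 and 0.22 in Dox cells (experiments 1 and 2). For the GAPDH control it was -0.012 and 0.001 in Dox+4μ8c cells and -0.026 and -0.002 in Dox cells. The part of these gaps in the results was not tested either.

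The promoters printed first are those of the Rab genes called in any comparison that RefSeq lists here, because 2 DNA elements that factors of the unfolded protein response bind were searched in them. Each is the 250 bases before the gene's start in RefSeq's GRCr8 rat assembly, 5′ to 3′ on the gene's strand, with matches in capitals. The matches are ACGTGG, the core that XBP1 binds, and CCACG, an end of the ER stress element. Each was searched on both strands (an ACGTGG match also holds CGTGG, the reverse complement of CCACG).
Rab3b, chr5:128858841-128859090, plus strand: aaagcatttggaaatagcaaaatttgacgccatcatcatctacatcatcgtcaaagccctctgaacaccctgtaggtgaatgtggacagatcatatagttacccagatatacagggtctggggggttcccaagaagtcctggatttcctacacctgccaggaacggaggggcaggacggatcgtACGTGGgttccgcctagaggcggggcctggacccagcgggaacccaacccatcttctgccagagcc
Rab9b, chrX:105023873-105024122, minus strand: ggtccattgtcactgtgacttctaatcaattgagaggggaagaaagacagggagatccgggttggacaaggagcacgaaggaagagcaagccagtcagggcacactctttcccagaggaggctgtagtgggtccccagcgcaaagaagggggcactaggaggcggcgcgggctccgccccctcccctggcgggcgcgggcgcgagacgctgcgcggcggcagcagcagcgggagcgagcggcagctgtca
Rab4b, chr1:91600338-91600587, minus strand: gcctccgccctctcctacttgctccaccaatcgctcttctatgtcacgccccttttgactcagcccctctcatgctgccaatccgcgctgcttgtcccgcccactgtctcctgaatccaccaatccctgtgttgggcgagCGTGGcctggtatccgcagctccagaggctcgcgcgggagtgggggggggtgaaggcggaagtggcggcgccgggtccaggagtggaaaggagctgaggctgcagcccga
Rab3b had 1 ACGTGG match, whose first base lay 66 bases before the start, Rab4b had CCACG on the opposite strand at 110 bases and Rab9b had neither. Among the 45 Rab genes with a promoter in the table, ACGTGG was found in 5 (11.1%), against 6.88% of all 27457 promoters of this length. The 5 were Rab1a, Rab3b, Rab5a, Rab20 and Rab40c, of which Rab3b alone was called in any comparison below. CCACG was found in 21 of the 45 (46.7%), against 28.0% of all promoters. The 27457 promoters outnumber the 12603 measured genes, so this background reaches beyond the genes on the arrays, and no test was made of these shares. The whole ER stress element, both strands, was found in 0 of the 45 Rab promoters and in 0.0765% of all promoters. These matches are letters in a window and say nothing of binding.

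The first comparison, Dox against untreated cells, asks how Rab mRNAs changed when mutant proinsulin was induced. Of the 56 Rab genes, 2 were called lower with Dox, Rab3b and Rab9b, which is 3.57% against 2.01% of all genes. limma called 0 Rab genes higher, against 4.42% of all genes, and without adjustment 3 Rab genes were higher and 5 lower at p under 0.05. No Rab gene changed by 1.5-fold or more, which 1.14% of all genes did. The size of the typical change was 0.07 for the Rab genes and 0.07 for all genes (median absolute log2 change). In 23 Rab genes (41.1%) Dox was lower than untreated in both experiments, against 24.8% of all genes, and in 14 (25.0%) it was higher in both, against 26.6%. The signs were opposite in 10 Rab genes (23.3% of all genes). A difference of exactly 0 in an experiment, found in 9 of the 56 Rab genes and 3179 of the 12603 genes, kept a gene out of these counts. As shares of all genes, lower in both lay above the background and higher in both slightly below it. Both shares depend on how many genes had such a 0, and no test was made of either.

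**Figure D1:**
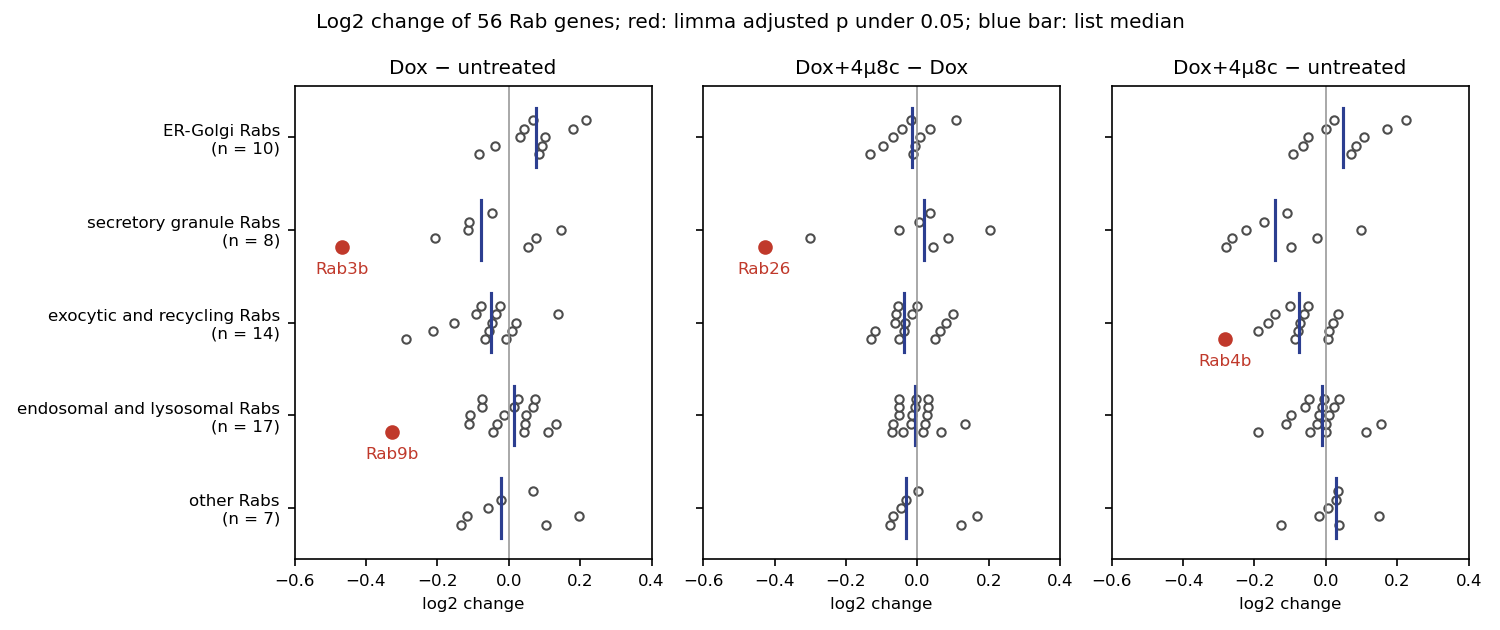
Log2 change of each of the 56 Rab genes (points, horizontal axis) by the site where the protein acts (rows), in Dox minus untreated, Dox+4μ8c minus Dox and Dox+4μ8c minus untreated cells. Filled red points are called (limma adjusted p under 0.05) and blue bars are the medians, 0.08 for ER-Golgi and -0.08 for secretory granule Rabs in the first panel.

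Rab3b, a Rab3 isoform of regulated exocytosis, gave -0.17 and -0.34 in Dox cells, against 0.32 and 0.10 in untreated cells (centred log2, experiments 1 and 2). In each experiment the Dox array lay below the untreated array, and the Dox+4μ8c array, at 0.00 and -0.10, lay between them. The change was -0.47 (SE 0.05, 95% interval -0.59 to -0.34, 0.723-fold), with -0.50 and -0.44 in the 2 experiments and an adjusted p of 0.00548 by limma. Rab3b was the only one of the 56 whose interval reached past 1.5-fold, the other 55 intervals lying inside it (97.0% of all genes). Across 12 other settings its adjusted p ran from 0.00463 to 0.0546, and it missed the threshold in 2, at 0.0526 without the first untreated array and at 0.0546 without the replicate block. On the second Dox array, which spread widest, the call did not depend (adjusted p = 0.00856 without it).

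Rab9b, a close relative of the Rab9a that serves traffic between late endosomes and the trans-Golgi, had -0.07 and -0.24 in Dox cells, against 0.30 and 0.04 in untreated cells. Here too the Dox arrays were below the untreated arrays in both experiments, with Dox+4μ8c in between at 0.00 and -0.04. The change was -0.33 (SE 0.06, 0.798-fold, -0.37 and -0.29 by experiment, limma adjusted p = 0.0337). This call was fragile: 8 of 12 other settings lost it, with adjusted p from 0.0283 to 0.16, the highest without the first untreated array and 0.0751 without the second Dox array. Without the replicate block it was 0.126.

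**Figure D2:**
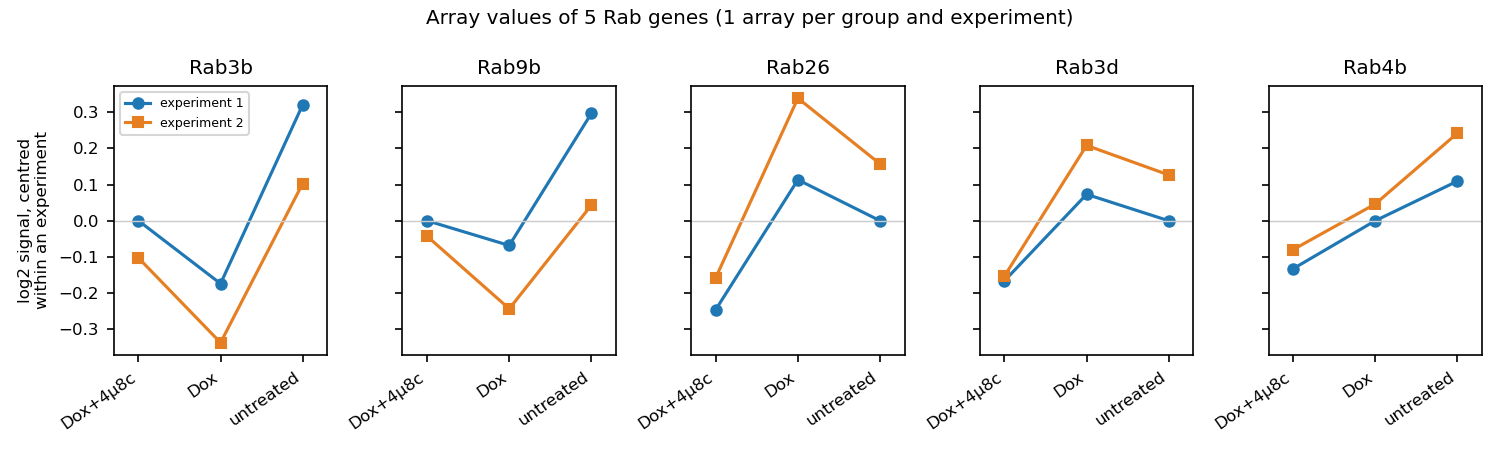
Centred log2 signal (vertical axis) of Rab3b, Rab9b, Rab26, Rab3d and Rab4b on each of the 6 arrays, with the groups Dox+4μ8c, Dox and untreated along the horizontal axis and 1 line per experiment (circles 1, squares 2). Rab3b and Rab9b are lowest with Dox in both experiments, Rab26 and Rab3d are lowest with Dox+4μ8c, and Rab4b is lowest with Dox+4μ8c and highest untreated.

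The ER-Golgi Rabs leaned upward with Dox and the secretory granule Rabs downward, by small amounts. The median change of the 10 ER-Golgi Rabs was 0.08 (0.04 and 0.07 in the 2 experiments), with 8 members above 0 and none called. Of these 8, Rab2a, Rab2b and Rab30 each had 2 probesets that ran opposite ways in experiment 2, while the 2 of Rab6a ran the same way. The median of the 8 granule Rabs was -0.08 (-0.06 and -0.08), with 5 members below 0, 3 above and Rab3b alone called. All genes had a median of 0.01 in this comparison. The 2 medians thus differed by 0.15 on the log2 scale, by 0.10 in experiment 1 and by 0.15 in experiment 2, and they are a description without a test. Without the second untreated array they were smaller, at 0.04 and -0.045. Each of the 8 granule Rabs had the same sign in both experiments, 5 lower and 3 higher, whereas among the ER-Golgi Rabs 6 were higher in both, 1 lower in both, 1 opposite and 2 at 0 in experiment 1.

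Of the ER-Golgi Rabs, Rab6a, which acts in retrograde transport at the Golgi, had 0.03 and 0.09 in Dox cells, against -0.26 and -0.05 in untreated cells. Its change of 0.22 (SE 0.05) was the highest of the family but missed the threshold (limma adjusted p = 0.0769), as it did in 12 of 12 other settings. Its 2 probesets ran the same way in both experiments, and the more variable of them alone gave 0.38. Rab18, which acts at the ER and on lipid droplets, followed with a change of 0.18 (SE 0.08, adjusted p = 0.275). Rab2a, of membranes between the ER and Golgi, changed by 0.10 (SE 0.06, 0.18 and 0.02 by experiment). Rab33b, a Golgi Rab that also serves autophagy, changed by 0.09, Rab43 by 0.07, Rab2b by 0.04 and the Golgi Rab30 by 0.03, with adjusted p from 0.371 to 0.734. Rab43 and Rab2b were tied at 0 in experiment 1, so those changes average that 0 with 0.14 and 0.09 in experiment 2.

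The pair Rab1a and Rab1b, which drive ER to Golgi transport, had opposite signs at 0.08 (SE 0.05, adjusted p = 0.377) and -0.08 (SE 0.05, adjusted p = 0.411). Neither was called, and the interval of each spanned both signs (-0.03 to 0.20 for Rab1a and -0.20 to 0.04 for Rab1b). In addition 3 probesets match both genes and were not used, and in experiment 2 they gave -0.07, -0.48 and -0.68 for Dox minus untreated, against 0.00, -0.04 and 0.00 in experiment 1. Their values thus differed between the experiments. With these probesets counted for both genes, Rab1a turned to -0.14 and Rab1b had the same sign, so the direction of Rab1a depends on that choice. Rab6b, a relative of Rab6a found mainly in neurons, changed by -0.04 with opposite signs by experiment (-0.10 and 0.02).

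Among the granule Rabs, the Rab3 isoforms did not move as a block. Rab3a, the main Rab3 of synaptic vesicles and also present on insulin granules, changed by -0.11 (SE 0.05, -0.08 and -0.15, adjusted p = 0.273), and Rab3c by -0.11 (SE 0.05, -0.11 and -0.12, adjusted p = 0.262). Rab3d, known from zymogen granules of acinar cells, changed by 0.08 (SE 0.05, adjusted p = 0.46). Of these, Rab3b was the only Rab3 gene called. Rab27a, which docks insulin granules at the plasma membrane, changed by -0.05 (SE 0.05) and its relative Rab27b by -0.21 (SE 0.09, -0.07 and -0.34, adjusted p = 0.262). Rab37, another granule Rab of β-cells, changed by 0.05 (SE 0.05) and Rab26, a secretory granule Rab of exocrine cells, by 0.15 (SE 0.05, adjusted p = 0.191), and both had the same sign in the 2 experiments.

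**Figure D3:**
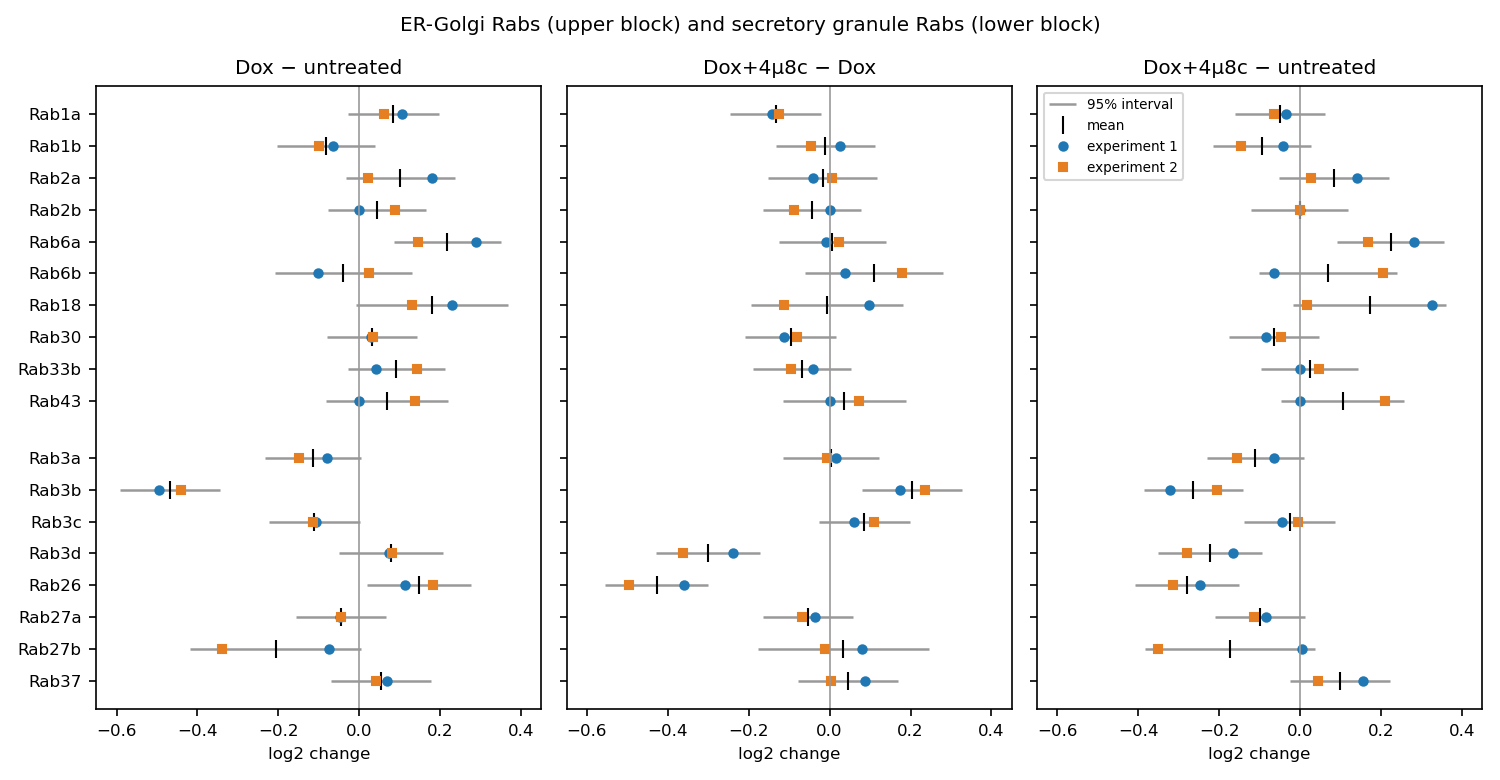
Log2 change (horizontal axis) of the 10 ER-Golgi Rabs (upper block) and the 8 secretory granule Rabs (lower block) in the 3 comparisons, with the value of experiment 1 (circle) and 2 (square), their mean (tick) and its 95% interval (grey line). Rab3b stands at -0.47 in Dox minus untreated, and Rab26 (-0.43) and Rab3d (-0.30) stand to the left of all others in Dox+4μ8c minus Dox.

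Outside these lists the exocytic and recycling Rabs had a median of -0.05 with 11 of 14 below 0, and the endosomal and lysosomal Rabs a median of 0.02 with 8 of 17 below 0. Rab12, which takes part in traffic of the transferrin receptor to lysosomes, had -0.01 and -0.26 in Dox cells, against 0.12 and 0.19 in untreated cells. Its change of -0.29 (SE 0.08) missed the threshold (adjusted p = 0.0969) and differed between the experiments, at -0.13 and -0.45. Without the first Dox array the adjusted p was 0.00886, within a range over 12 settings that ended at 0.536. Rab11b, a recycling endosome Rab named here after its values were seen, changed by -0.21 (SE 0.05, -0.17 and -0.25) with an adjusted p of 0.0605, and it was the 1 Rab gene called lower without the replicate block. Rab5a, of early endosomes and also named after the fact, had the widest error of the family, with 0.48 in experiment 1 and -0.21 in experiment 2.

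The second comparison, Dox+4μ8c against Dox alone, asks what changed in Rab mRNAs when the IRE1 inhibitor was present while mutant proinsulin was made. Of the 56 Rab genes 1 was called lower, Rab26 (1.79%, against 1.61% of all genes), and limma called 0 higher (0.175% of all genes), so the Rab share was close to the background. Without adjustment 5 were lower and 2 higher at p under 0.05. The 1.5-fold mark was passed by 0 Rab genes (0.397% of all genes), and the 95% interval lay inside it for 56 of 56 (98.4% of all genes). In both experiments 15 Rab genes were lower with the inhibitor (26.8%, against 26.9% of all genes) and 15 were higher (26.8%, against 19.0%), with opposite signs in 12 (26.2% of all genes). The difference was exactly 0 in an experiment for 14 Rab genes and for 3516 of the 12603 genes, which none of these counts can hold.

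Rab26, a granule Rab first studied in exocrine glands, had -0.25 and -0.16 in Dox+4μ8c cells, against 0.11 and 0.34 in Dox cells. The Dox+4μ8c array was the lowest of the 3 in both experiments and the Dox array the highest, while untreated cells, at 0.00 and 0.16, lay in between. The change was -0.43 (SE 0.05, 95% interval -0.56 to -0.30, 0.743-fold, -0.36 and -0.50 by experiment, limma adjusted p = 0.0221). Of 12 other settings 8 kept the call, with adjusted p from 0.00618 to 0.389 over all, and it was lost without either Dox+4μ8c array (0.121 and 0.389) and without the replicate block (0.119).

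Rab3d had a similar order of groups. It gave -0.17 and -0.15 in Dox+4μ8c cells, against 0.07 and 0.21 in Dox cells, with 0.00 and 0.13 in untreated cells. Its change of -0.30 (SE 0.05, -0.24 and -0.36) just missed the threshold, at an adjusted p of 0.0565, and 2 of 12 other settings took it under (range 0.0296 to 0.731). Rab3b went the other way, by 0.20 (SE 0.05, 0.17 and 0.23), which was not called (adjusted p = 0.154), so its arrays under Dox+4μ8c stood above Dox and below untreated in both experiments.

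The remaining granule Rabs lay near 0, from -0.05 for Rab27a to 0.09 for Rab3c, with Rab27b at 0.03, Rab37 at 0.05 and Rab3a at 0.00. The 8 granule Rabs had a median of 0.02, and the 10 ER-Golgi Rabs one of -0.01, against -0.01 for all genes. Without the first Dox+4μ8c array the granule median had the other sign, -0.05, and the ER-Golgi median was -0.06. The difference of those medians was -0.03 (-0.04 and -0.05 by experiment). Among the ER-Golgi Rabs Rab1a had the lowest value in the main fit, -0.13 (SE 0.05, -0.14 and -0.13), with an adjusted p of 0.327. That value rests on 1 probeset. With the probesets that match both Rab1a and Rab1b counted, the change of Rab1a was -0.02, so its place as the lowest depends on that choice. Rab6a barely moved, at 0.01 (95% interval -0.13 to 0.14), and Rab18 gave -0.01, Rab2a -0.02 and Rab1b -0.01. Rab30 (-0.10), Rab33b (-0.07) and Rab2b (-0.04) were below 0 and Rab6b (0.11) and Rab43 (0.04) above it, and none of the 10 was called.

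The third comparison, Dox+4μ8c against untreated cells, asks which Rab differences remained with the inhibitor present. Rab4b, which returns cargo from early endosomes to the surface, was the 1 Rab gene called lower (1.79%, against 1.13% of all genes), and limma called 0 higher (1.17% of all genes). Without adjustment 8 were lower and 1 higher at p under 0.05, and 0 passed 1.5-fold (0.46% of all genes), with all 56 intervals inside it (98.6% of all genes). In both experiments 24 Rab genes were lower (42.9%, against 28.9% of all genes) and 8 higher (14.3%, against 23.9%), with opposite signs in 10 (19.9% of all genes). An exact 0 in an experiment was found for 14 Rab genes and for 3449 of the 12603 genes. The share lower in both experiments lay above the background here too, against the same untreated arrays as in the first comparison, and no test was made of it.

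Rab4b had -0.13 and -0.08 in Dox+4μ8c cells, against 0.11 and 0.24 in untreated cells, and Dox cells lay in between in both experiments at 0.00 and 0.05. The change was -0.28 (SE 0.05, 0.822-fold, -0.24 and -0.32, limma adjusted p = 0.0495). With the adjusted p this near the threshold, 7 of 12 other settings lost the call (range 0.0175 to 0.454), among them the fits without either Dox+4μ8c array (0.323 and 0.454) and without either untreated array (0.14 and 0.294). Without the replicate block it was 0.118.

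The granule Rabs lay mostly below untreated. Their median was -0.14 (-0.07 and -0.18), with 7 of 8 below 0 and 6 lower in both experiments (-0.0808 without the second untreated array and -0.0823 without the second Dox+4μ8c array), against 0.05 for the ER-Golgi Rabs (-0.02 without the second untreated array) and 0.00 for all genes. Rab26 changed by -0.28 (adjusted p = 0.0593), Rab3b by -0.26 (0.0624) and Rab3d by -0.22 (0.103), each with an SE of 0.05. Rab26 and Rab3d were thus below untreated with the inhibitor and above it with Dox alone, while Rab3b was below in both, though Rab3b with Dox alone was the only one of these values that was called. Rab37 was the granule Rab above 0 at 0.10 (SE 0.05, adjusted p = 0.433), and Rab27b gave -0.17 with 0.01 and -0.35 by experiment. Of the ER-Golgi Rabs, Rab6a changed by 0.22 (SE 0.05, 0.28 and 0.17, adjusted p = 0.11), and it was called higher only without one or the other Dox array (0.0476 each, range 0.0476 to 0.549). Rab18 had 0.17 (SE 0.08) and Rab43 0.11 (SE 0.06), and Rab1b, at -0.09, was the lowest of the list. Over the 2 lists the medians differed by 0.19 (0.07 and 0.20 by experiment).

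The genes that act with Rabs were set beside them. Of 11 measured ER-Golgi Rab effectors 4 were called higher with Dox (4.42% of all genes were; list median 0.15, against 0.01 for all genes) and 0 lower, while 0 of the 10 ER-Golgi Rabs were called. Uso1 (p115), the tether that Rab1 recruits, had 0.34 and 0.42 in Dox cells, against -0.23 and -0.02 in untreated cells, a change of 0.51 (SE 0.06, adjusted p = 0.00672). Golgb1 (giantin), a large golgin, changed by 0.46 (adjusted p = 0.00699), Gorasp2, a stacking protein that acts with golgin-45, by 0.30 (0.0326) and Golga5 (golgin-84) by 0.26 (0.041). With Dox+4μ8c against Dox, Uso1 changed by -0.37 (adjusted p = 0.0419) and Golgb1 by -0.35 (0.0403), the 2 of the 11 called lower (1.61% of all genes were). For Dox+4μ8c against untreated 0 of the 11 were called (1.17% of all genes were higher and 1.13% lower). The counts depended on the arrays: leaving out each in turn left 1 to 5 effectors called higher with Dox and 0 to 4 called lower with the inhibitor, and without the replicate block there were 2 and 0.

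**Figure D4:**
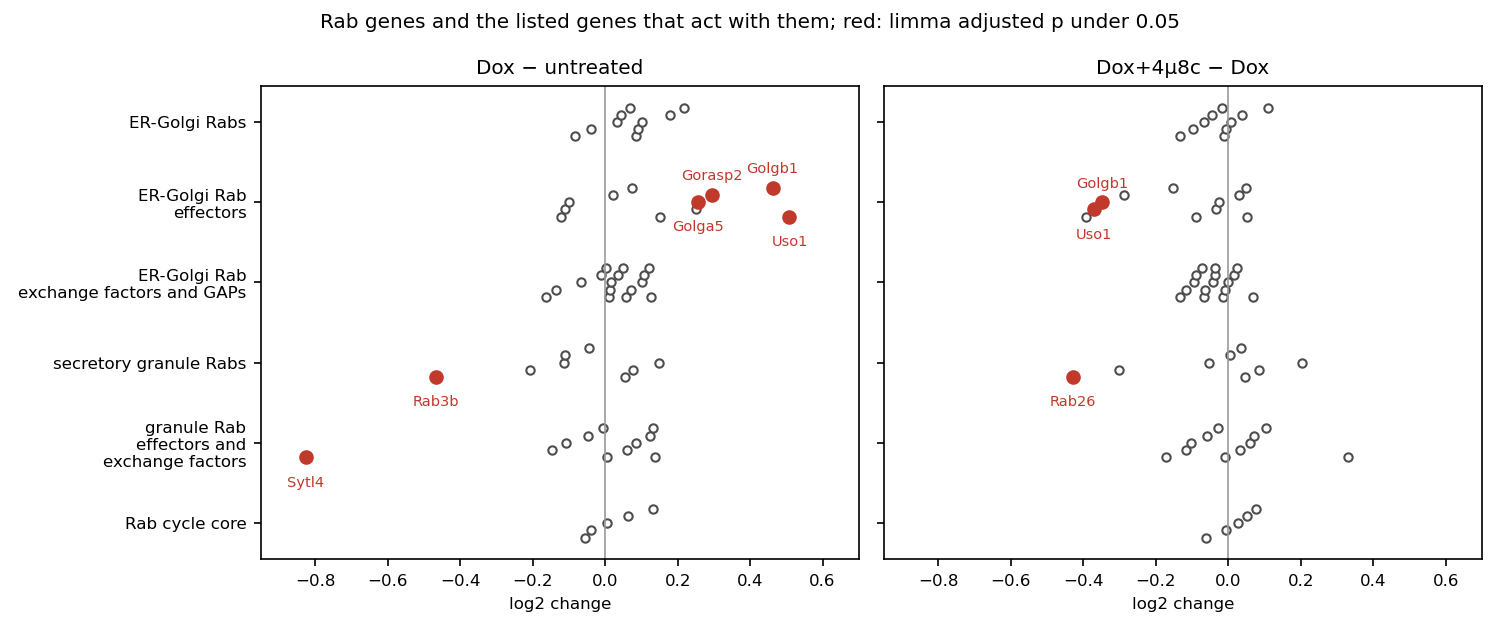
Log2 change (horizontal axis) of the ER-Golgi and secretory granule Rabs and of the listed effectors, exchange factors, GTPase-activating proteins and Rab cycle core genes (1 point per gene), with called genes (limma adjusted p under 0.05) filled in red and named. In Dox minus untreated 4 ER-Golgi Rab effectors are called higher, and Rab3b and Sytl4 lower, and in Dox+4μ8c minus Dox Uso1, Golgb1 and Rab26 are called lower.

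Of 16 measured exchange factors and GTPase-activating proteins of ER-Golgi Rabs 0 were called in any comparison (medians 0.03, -0.04 and 0.00 in the order above), nor were any of the 5 measured genes of the Rab cycle core, which serves membrane delivery and retrieval of Rabs in general. Among 11 measured effectors and exchange factors of granule Rabs, Sytl4 (granuphilin), which links Rab27a to the docked insulin granule, was the 1 called, lower with Dox (2.01% of all genes were). It had -0.25 and -0.74 in Dox cells, against 0.32 and 0.33 in untreated cells, a change of -0.83 (-0.58 and -1.07, adjusted p = 0.0109, and 0.0651 without the replicate block). Rab27a itself was not called in that comparison. With the inhibitor Sytl4 changed by 0.33 against Dox (adjusted p = 0.31).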

How the data were processed

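Total RNA was labelled by a 3′ IVT protocol and hybridized to Affymetrix rat arrays. The authors deposited log2 values, for which the submitters' processing notes name RMA without a version. Each probeset is centred separately in the 2 experiments, by a rule not given in the sources used here. In experiment 1 the median of the 3 arrays was 0 for 100% of probesets, against 0.84% in experiment 2. The centres thus differed between the experiments, and groups are compared within an experiment. Of 25476 probesets, 17978 had 1 gene symbol, and these were averaged per symbol, which gave 12603 genes without a filter. Signal over background cannot be given for centred values, and the number of arrays limits the precision.

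The test was limma's moderated fit (version 3.58.1, R 4.3.3; lmFit then eBayes; two-sided; groups plus experiment as a replicate block; 2 residual and 4.25 prior degrees of freedom; Benjamini-Hochberg over all genes). The labels' replicate number was taken as the experiment, and deviations from the group means correlated between groups by 0.03 to 0.10, which centring limits as a check. Python 3.11.15, pandas 2.3.3, numpy 2.4.6 and matplotlib 3.10.9 made counts and figures. Probesets matching several symbols were left out of the main fit. The procedure was also run on simulated normal values, centred on the median in both experiments. They lacked the genes at 0 on all arrays of experiment 1 and the different centre of experiment 2. The run therefore cannot show how the fit handles either. The Rab genes, the gene lists and the comparisons were chosen with earlier results of these data known. Named Rab genes were every called one, the 3 largest changes of each comparison, all members of the ER-Golgi and granule lists and the called members of the other lists. Alternatives were a fit without the block, arrays centred on their median, the most variable probeset per gene, probesets with several symbols, array weights, each array left out and, chosen after the data were seen, leaving out genes tied at 0 in experiment 1. Promoters came from RefSeq (45 of 56 Rab genes matched). Rab26 had no entry.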

Additional observations from a re-analysis of the deposited data

How the results depend on the processing

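No called change of a named Rab gene turned its sign under the 12 alternatives, while some uncalled ones near 0 did, Rab1a with Dox among them. The count of Rab genes called lower with Dox (2 in the main fit) was 1 without the replicate block (Rab11b), 1 with the most variable probeset, 1 with array weights and 3 without the genes tied in experiment 1 (Rab11b, Rab3b and Rab9b), and ran from 0 to 4 when each array was left out. For Dox+4μ8c against Dox (1) it was 0 without the replicate block, 0 with the most variable probeset and 2 without the genes tied in experiment 1, and ran from 0 to 2 when each array was left out. For Dox+4μ8c against untreated the count lower (1) was 0 without the replicate block, 0 with centred arrays, 0 with the most variable probeset, 3 with array weights and 2 without the tied genes, and ran from 0 to 4 when each array was left out, and the count higher (0) ran from 0 to 1. When each array was left out, the ER-Golgi medians ran from 0.0384 to 0.0774 (Dox against untreated), from -0.0605 to -0.0114 (Dox+4μ8c against Dox) and from -0.0176 to 0.0469 (Dox+4μ8c against untreated, the lowest without the second untreated array), and the granule medians from -0.0811 to -0.045, from -0.0461 to 0.0479 and from -0.19 to -0.08 in the same order. The most variable probeset gave an ER-Golgi median of -0.0648 for Dox+4μ8c against Dox. The cause of these shifts was not tested, and the number of arrays, 2 per group, limits the precision.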

Other observations

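Bhlha15 (MIST1), a transcription factor of secretory cells that in mouse gastric zymogenic cells is known to activate Rab26 and Rab3d, was looked at after the values of those genes were seen. It had 0.00 and -0.12 in Dox+4μ8c cells, 1.18 and 1.59 in Dox cells and -0.05 and 0.12 in untreated cells (centred log2, experiments 1 and 2). The Dox array thus stood above both other groups in each experiment. The change was 1.35 for Dox against untreated (limma adjusted p = 0.00304), -1.44 for Dox+4μ8c against Dox (0.0129) and -0.10 for Dox+4μ8c against untreated (0.746). The call against Dox was lost in 3 of 12 other settings (adjusted p from 0.000826 to 0.195 over the 12). Rab26 and Rab3d were highest with Dox in both experiments as well, but lowest with Dox+4μ8c rather than near untreated. CATATG, an E-box that MIST1 binds, was found in 0 of the 45 Rab promoters of 250 bases, Rab3d among them, and in 3.5% of all promoters. No link between these genes was tested.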
